A study of Homo sapiens with 2 samples.

Results

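The SOX family was followed through 17 array probes for 10 genes, *SOX2*, *SOX4*, *SOX5*, *SOX6*, *SOX9*, *SOX11*, *SOX12*, *SOX13*, *SOX17* and *SOX18*, taken from the 47323 probes of a single-channel Illumina bead array by the gene symbol of the platform annotation. They are 10 of 20046 named genes. The series holds 1 group of 2 arrays, 1 for each biological replicate of HUES8 cells, a human embryonic stem cell line, that had been differentiated to stage 6, the end point of a protocol for SC-beta cells, insulin-secreting beta cells made from stem cells. The cells had been sorted as positive for the proteins NKX6-1 and insulin, and RNA came from the MARIS protocol, which recovers it from fixed and antibody-stained cells. A single stem cell line underlies both arrays, so the replicates do not sample different genetic backgrounds. No other group is in the series as analysed here, so no p-value is given. The arrays answer which SOX paralogs were above background, and how far the replicates agreed on each.

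SOX proteins are transcription factors that bind DNA through an HMG box, a domain that enters the minor groove and bends the helix. They are sorted into lettered groups by the similarity of that domain, and members of a group often overlap in function. In the embryo they mark successive decisions on the way to the islet: *SOX2* works with OCT4 in pluripotent cells, *SOX17* specifies endoderm, *SOX9* maintains pancreatic progenitors and later duct cells, and *SOX4* acts, in the mouse, in the formation of endocrine cells.

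Each value is a normalized intensity, in arbitrary units. Background appears to have been subtracted, since values fall below 0, so that a silent probe lies near 0 or below it. A probe was called above background on an array if it was brighter there than 95% of the 457 probes of olfactory receptor genes, a floor of 18.01 on replicate 1 and 15.9 on replicate 2. A gene was called on an array if any of its probes was, and on both arrays if the same probe was above both floors. Probes differ in how bright a given amount of RNA makes them, so SOX genes are not ranked against each other by intensity. In sorted bulk RNA, fewer cells that express a gene cannot be told apart from less RNA per cell. Of the genes for the sorting markers, *INS*, the insulin gene, had 16501 on both arrays, whereas *NKX6-1*, a beta-cell homeodomain factor, had 78.9 on replicate 1 and -4.24 on replicate 2, where it was below the floor.

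Of the 10 SOX genes, 5 passed the floor of both arrays: *SOX4*, *SOX9*, *SOX11*, *SOX12* and *SOX13*. Over all named genes 46.9% met the same rule, so the share of the family was close to that of all genes. Replicate 1 alone gave 6 of 10 SOX genes (51.8% of all genes) and replicate 2 alone also gave 6 of 10 (54.8%). The sixth gene on each array was *SOX2*, by a different probe each time. *SOX5*, *SOX6*, *SOX17* and *SOX18* were above background on neither array, 4 of 10 genes, against 40.6% of all genes. By probe, 5 of 17 were above background on both arrays (38.1% of all named probes) and 10 on neither. At or below 0 lay 8 SOX probes on replicate 1 and 6 on replicate 2, of which 4 were the same.

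**Figure D1:**
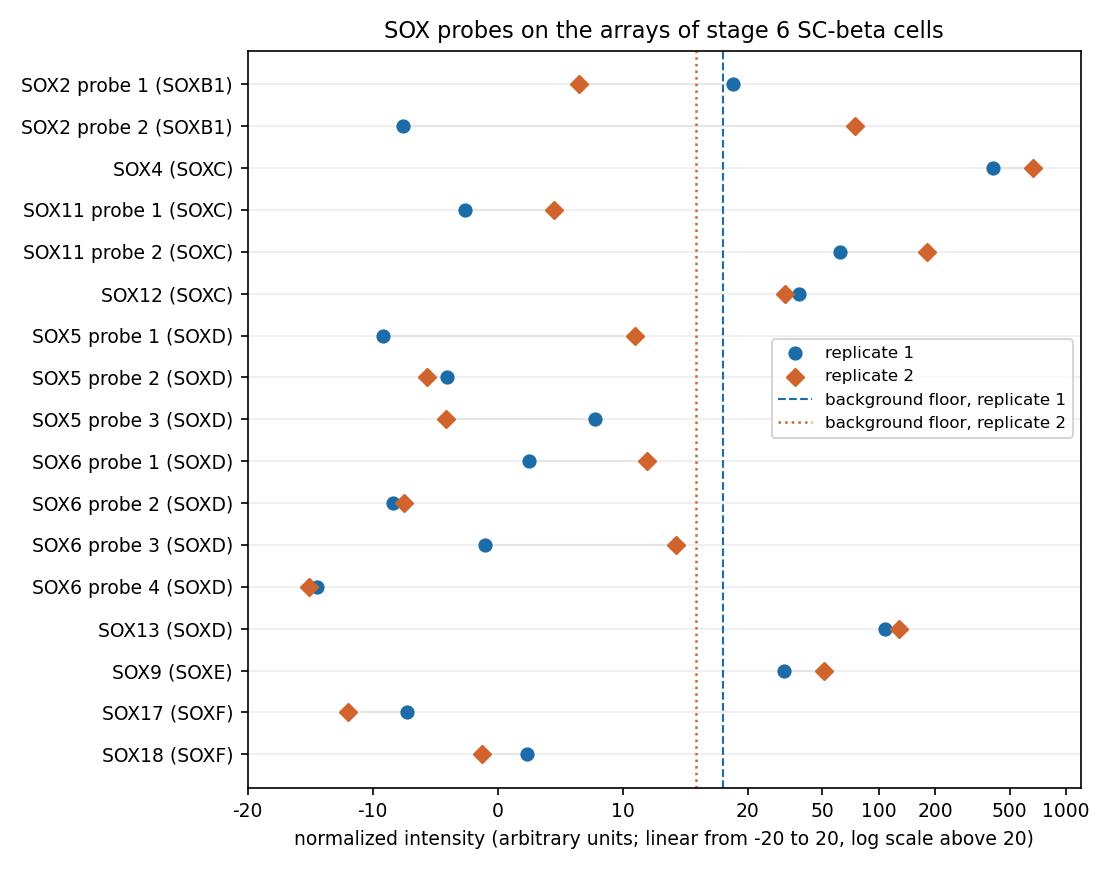
Normalized intensity of the 17 SOX probes on replicate 1 (circles) and replicate 2 (diamonds), with the background floor of each array as a vertical line. The horizontal axis is linear around the floors and below them and logarithmic above, as its label says. Only the probes of *SOX4*, *SOX12*, *SOX13*, *SOX9* and 1 probe of *SOX11* lie right of both floors, and each *SOX2* probe lies right of the floor on 1 array only.

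In the SOXC group every gene was detected, 3 of 3 on both arrays, against 46.9% of all genes. *SOX4* had 407 on replicate 1 and 664 on replicate 2 (mean 535 ± 181, SD, n = 2), which is 22.6 and 41.8 times the floor of each array. No olfactory receptor probe was as bright on either array. *SOX4* therefore stood far from the floor whichever array was read.

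*SOX11*, which acts in newborn neurons and other maturing cells, was represented by 2 probes that gave opposite calls. The probe ILMN_1773459 had 62.5 on replicate 1 and 182 on replicate 2 (122 ± 84.4, SD, n = 2), above the floor by 3.47 and 11.5 times. The probe ILMN_1769361 had -2.62 and 4.55, below the floor on both. Such a split was common on these arrays: among 3780 genes with 2 or more probes and a call on both arrays, 67.8% had another probe without one. The detection of *SOX11* rests on a single probe, and the deposited values do not say which transcript each probe reads.

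*SOX12*, the third SOXC gene, had 37.6 on replicate 1 and 31.8 on replicate 2 (34.7 ± 4.07, SD, n = 2). It cleared the floor by 2.09 and 2.01 times, and 3 of 457 olfactory receptor probes were as bright on each array. Its replicates were close, but the margin over background was narrow.

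Genes known in other cells as partners or targets of SOXC factors were mostly detected. The list was chosen with earlier results of these data known, so its share is not independent of these arrays. Of 11 measured genes of this neuronal and endocrine list, 9 were above background on both arrays, against 46.9% of all genes. The count was 7 if the median probe stood for each gene in place of any probe. No share over all genes was computed by the median probe, here or for the lists below. *TUBB3*, a neuronal tubulin, had 1695 and 661 on replicates 1 and 2, and *TEAD2*, a Hippo pathway factor and SOXC target in the mouse, had 37.5 and 128. *DCX*, a microtubule-binding protein of young neurons, had 649 and 845 at 1 of 2 probes. *INSM1*, which drives endocrine differentiation, had 3799 and 5650.0. The members without a call were *NEUROG3*, the transient endocrine progenitor factor, with 13.9 and 13.3, and *POU3F2*, a neural POU factor, with 4.76 and -1.89. Islet endocrine cells and neurons are known to share many of these genes. No SOX protein or binding was measured.

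In the SOXD group only *SOX13* was detected, 1 of 3 genes and 1 of 8 probes. Over all genes 46.9% were called on both arrays, and over all named probes 38.1%. *SOX13*, also known as the islet cell autoantigen ICA12, had 107 on replicate 1 and 128 on replicate 2 (118 ± 14.4, SD, n = 2), 5.97 and 8.05 times the floor. A single olfactory receptor probe was as bright on replicate 1 and none on replicate 2. Its replicates lay within 1.19-fold of each other.

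*SOX5* and *SOX6*, the other SOXD genes, lack an activation domain of their own and work with *SOX9* in cartilage. *SOX6* has also been described, in rodent beta-cell lines, as a brake on insulin secretion. All 3 *SOX5* probes were below the floor, with -9.13, -4.07 and 7.76 on replicate 1 and 11.01, -5.64 and -4.16 on replicate 2 in the same order. All 4 *SOX6* probes were also below it, with 2.54, -8.38, -1.02 and -14.5 on replicate 1 and 11.97, -7.45, 14.3 and -15.1 on replicate 2. The value of 14.3 was the closest of any SOX probe to a floor from below, and 34 of 457 olfactory receptor probes were as bright on that array. Because 7 probes for these genes were read, their lack of signal does not hang on 1 probe, but it says only that no transcript was detectable with these probes.

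*SOX9*, the single SOXE gene among the 10, had 31.2 on replicate 1 and 51.3 on replicate 2 (41.3 ± 14.2, SD, n = 2). It was above the floor by 1.73 and 3.23 times, and 5 and 2 olfactory receptor probes were as bright. On replicate 1 this was the narrowest margin among the 5 called genes of the 10. At the 99th percentile of the olfactory receptor probes, a floor of 32.3 on replicate 1 and 27.4 on replicate 2, *SOX9* was above background on replicate 2 alone.

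Genes of the *SOX9* programme in pancreatic progenitors were detected in 5 of 13 measured cases, against 46.9% of all genes by any probe. The count was 3 if the median probe stood for each gene. *FOXA2* and *PDX1*, which beta cells retain, had 2722 and 2777, and 2036 and 3079, each at 1 of several probes. *GATA4* had 39.1 and 55.1, *NOTCH1* 58.8 and 56.2, and *HES1*, the Notch effector, 22.9 and 170. *ONECUT1*, *FGFR2*, *NOTCH2*, *PTF1A*, *PROX1*, *GATA6* and *NEUROG3* were below the floor on both arrays, and *NKX6-1* on replicate 2. Duct genes passed both floors in 5 of 7 cases and that of replicate 2 in 7 of 7, against 46.9% and 54.8% of all genes. *KRT19*, an epithelial keratin, had 1022 and 926, *CFTR*, the duct chloride channel, 29.3 and 216, and *CA2*, carbonic anhydrase 2, 81.7 and 371. *SPP1* had 4.63 and 49.7 and *KRT7* 14.0 and 17.3, and each was above the floor on replicate 2 only. *EPCAM*, an epithelial adhesion protein, had 3125 and 3464, and *MUC1*, a mucin, 219 and 103. Of the 5 duct genes called on both arrays 3 were higher on replicate 2, against 60.9% of all called genes.

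Cartilage genes that *SOX9* activates together with *SOX5* and *SOX6* were detected in 2 of 11 cases, against 46.9% of all genes, and in 1 by the median probe. *COL2A1*, the main cartilage collagen, had 91.8 and 97.3 at 1 of 2 probes, and *COL9A2*, a chain of collagen IX, had 32.8 and 114. *ACAN*, the cartilage proteoglycan aggrecan, had 1.90 and 0.239, and the other 8 genes were likewise below the floor on both arrays.

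*SOX2* had 2 probes, and they contradicted each other. The probe ILMN_1770635 had 18.8 on replicate 1, barely above the floor of 18.01, and 6.52 on replicate 2. The probe ILMN_2177156 had -7.54 on replicate 1 and 74.9 on replicate 2, at least 4.16-fold higher there than the floor of replicate 1. On replicate 1 the first probe was matched or exceeded by 22 of 457 olfactory receptor probes. On replicate 2 the second was matched by 1. Each array therefore carried a *SOX2* call, but no probe carried it on both. Of 6691 genes with 2 or more probes, 45 (0.673%) were called on each array by different probes alone. These 6691 include genes with no call, so this share is not on the same base as that given for *SOX11*. The probe for *SOX2-OT*, the long noncoding RNA whose gene encloses *SOX2*, had -9.64 and -6.75.

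The partners of *SOX2* in pluripotent cells were above background on both arrays in 3 of 9 measured cases, against 46.9% of all genes. *POU5F1*, which encodes OCT4, had 18.4 and 10.7, above the floor on replicate 1 only, and *NANOG* had -6.77 and 8.66. *FGF4*, *UTF1*, *DPPA4* and *LIN28A* were below the floor on both arrays. The detected genes were *ZFP42* (47.1 and 42.9), *LEFTY1* (44.2 and 86.1) and *SALL4* (23.6 and 111). The *POU5F1* value on replicate 1 met the floor of 18.01 with almost no margin. *LEFTY1* and *SALL4* were higher on replicate 2, as were the brighter *SOX2* probe and 60.9% of all called genes. *ZFP42*, *POU5F1* and the other *SOX2* probe were lower there.

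Neither gene of the SOXF group was detected on either array, as was so for 40.6% of all genes. *SOX17*, which marks definitive endoderm and later the endothelium, had -7.25 on replicate 1 and -11.9 on replicate 2. Its value was exceeded or matched by 353 and 423 of 457 olfactory receptor probes. *SOX18*, a regulator of blood and lymphatic vessels, had 2.38 and -1.27, matched by 155 and 226. Both genes had a single probe, and both probes lay among the silent receptor probes rather than at their upper edge.

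Endoderm genes associated with *SOX17* were above background on both arrays in 4 of 10 cases, near the 46.9% of all genes, and in 2 by the median probe. The 4 were *FOXA2*, *GATA4*, *CXCR4* (104 and 34.1 at 1 of 3 probes) and *KIT* (41.04 and 64.2). *CER1*, *EOMES*, *MIXL1* and *GATA6* were below the floor on both arrays. Endothelial genes associated with *SOX18* were above background in 1 of 10 cases, *CLDN5*, a tight junction claudin also found in epithelia, with 99.5 and 23.1. *VCAM1* had -10.7 and 74.8, and *CDH5*, *KDR*, *PECAM1*, *TEK*, *TIE1*, *EMCN*, *VWF* and *FLT4* were below the floor on both arrays. The low SOXF values thus stood beside low values for nearly all of the endothelial list.

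**Figure D2:**
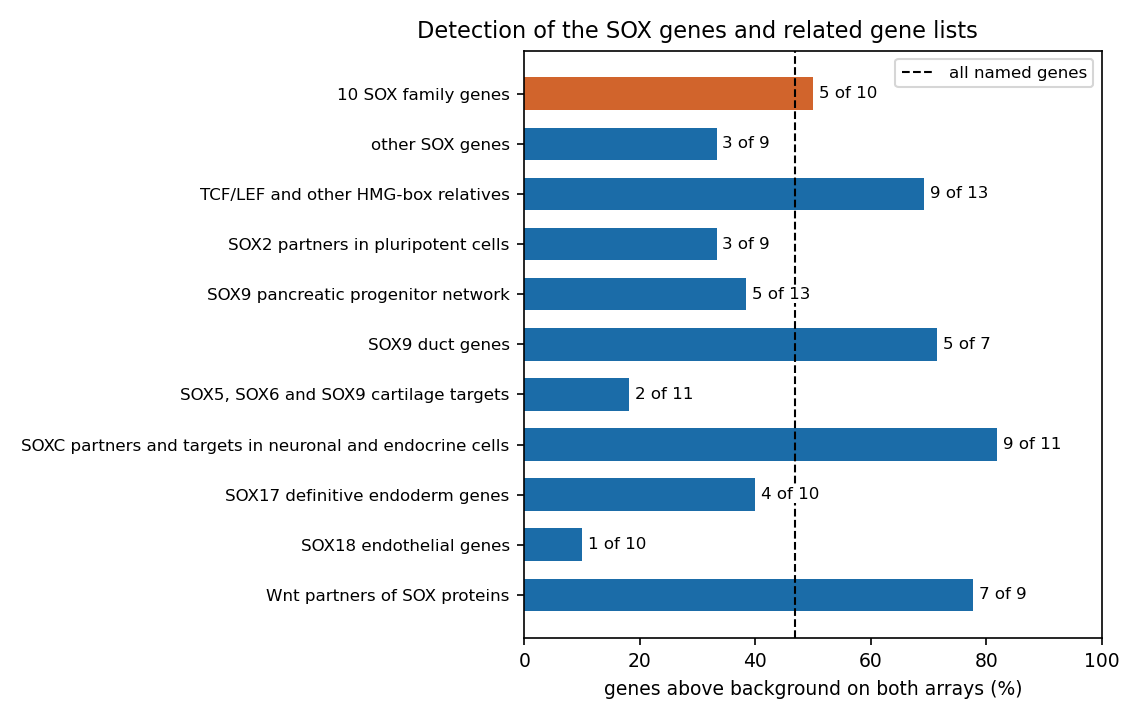
Share of measured genes above background on both arrays, for the 10 SOX genes and for the related gene lists, with the counts beside the bars. The dashed line is the share over all named genes, 46.9%, and lies close to the share of the SOX genes, while the SOXC list (9 of 11) is above it and the cartilage (2 of 11) and endothelial (1 of 10) lists are below it. All shares are by any probe, and by the median probe the SOXC count is 7. The lists were chosen with earlier results of these data known.

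Between the replicates, the 5 SOX genes called on both arrays differed by a median of 0.71 on the log2 scale, replicate 2 minus replicate 1, where all 9393 called genes had a median of 0.21. With the log offset of 50 the SOX median was 0.32, and without *SOX9* (the 99th percentile floor) or *SOX11* (the median probe) it was 0.48. Of the 5, 4 were higher in replicate 2 and 1 was lower, and 60.9% of all called genes were higher there. *SOX11* differed most among these 5, by 1.54 (2.91-fold), and was the only one of them 2-fold or more apart, as 24.5% of all called genes were (13.5% higher and 10.9% lower in replicate 2). A difference at least as large as that of *SOX11* in the same direction was found in 3.76% of called genes. *SOX4* and *SOX9* differed by 0.71 and 0.72, *SOX13* by 0.25 and *SOX12* by -0.24. These 4 lie between the 10th percentile of called genes, -1.06, and the 90th, 1.13. With 1 array per replicate, no difference has a replicate check of its own.

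**Figure D3:**
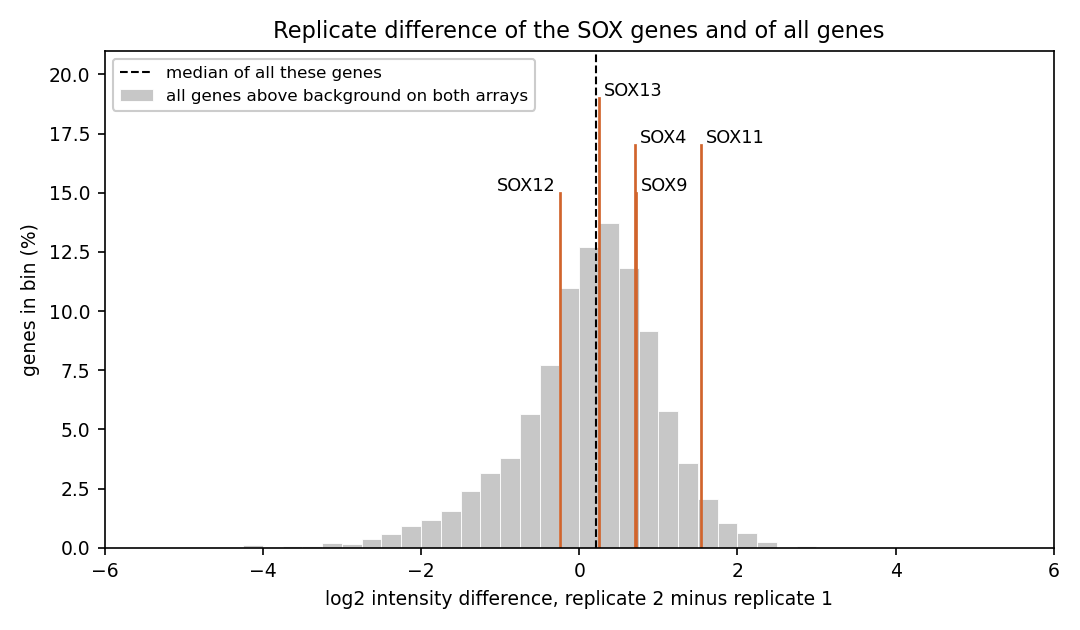
Histogram of the log2 intensity difference, replicate 2 minus replicate 1, over the 9393 genes above background on both arrays, in percent of genes per bin, with the 5 detected SOX genes as vertical lines of arbitrary height. The dashed line is the median of all these genes, 0.21. *SOX11* at 1.54 lies in the right tail, and the other SOX lines lie in the body of the distribution.

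Markers of endocrine and of other cell types also differed between these arrays. The summed intensity of the 4 measured alpha markers was 22111 on replicate 1 and 29443 on replicate 2, with 4 above background on each. That of the 4 delta markers was 1942 and 3212, with 1 and 4, and that of the 5 enterochromaffin markers 7695 and 9341, with 5 and 5. The 6 beta markers summed to 22314 and 26072, with 6 and 5 above background. Of the 5 beta markers called on both arrays, 3 were higher on replicate 2. *INS* had 16501 on both arrays, while *SLC30A8* had 2756 and 2412 and *NKX6-1* 78.9 and -4.24. The summed intensity of 4 proliferation markers was 18.6 on replicate 1 and 190 on replicate 2, with 1 and 3 of 4 above background. Of these, *TOP2A* had -2.05 and 85.4, and *MKI67* was below the floor on both. The 4 measured duct markers summed to 1070 and 1209, with 2 and 4 above background, the 4 neural markers to 4548 and 5890, with 3 and 4, and the 6 mesenchymal markers to 421 and 475, with 4 and 6. Among the calls on replicate 2 only, *KRT7* at 17.3 and *PDGFRB* at 17.8 passed the floor of 15.9 there. Both values lie under the floor of 18.01 on replicate 1. A few bright probes carry such sums, and some members went the other way: *KRT19* had 1022 and 926, *TUBB3* 1695 and 661, and *TAGLN* 205 and 112, whereas *STMN2* had 2196 and 4365. Of 5 endothelial markers none was above background on either array. The 4 measured markers of undifferentiated stem cells summed to 60.3 and 78.1, with 2 and 1 above background. The 4 acinar markers summed to 23.2 and 18.1, with 1 and 0. Over all genes 51.8% were above background on replicate 1 and 54.8% on replicate 2, and 60.9% of all called genes were higher on replicate 2. The part of these cell types in the higher values of replicate 2 at *SOX9*, at the detected probe of *SOX11* and at 1 probe of *SOX2* was not tested.

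Of 9 other SOX genes on the array, outside the 10, 3 were above background on both arrays, against 46.9% of all genes. Replicate 1 alone gave 4 of 9 (51.8% of all genes) and replicate 2 alone 3 of 9 (54.8%). So few genes cannot tell these shares apart. *SOX8*, a SOXE relative of *SOX9*, had 125 on replicate 1 and 40.0 on replicate 2, a difference of -1.65 on the log2 scale and opposite in sign to that of *SOX9*. *SOX15* had 29.9 and 30.2 and *SOX21*, a SOXB2 gene, 27.5 and 33.2. *SOX1* and *SOX3*, the SOXB1 relatives of *SOX2*, had -9.37 and -5.36, and -12.1 and 1.89. *SOX7*, the third SOXF gene, was below the floor at both probes, as were *SOX10* and *SOX14* at their single probes. *SOX30* reached 20.6 on replicate 1 at 1 of 2 probes, with 2.93 on replicate 2. By group, then, all SOXC genes were detected, *SOX11* at 1 of 2 probes, and no SOXF gene was. Over all genes 46.9% were above background on both arrays and 40.6% on neither. Groups of 3 genes are too small to make this a trait of the group.

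The RefSeq promoter table (GRCh38.p14) held 6 of the 10 genes, and the 250 bases before the annotated start were compared. Printed here are the 3 detected genes with an entry and *SOX2*, whose probes disagreed, so that the promoters of called genes can be read beside each other. They run 5′ to 3′ on the strand of the gene, which is the plus strand for all 4, and capitals mark CCAAT, the NF-Y motif, on either strand. *SOX4* is at chr6:21593501-21593750, *SOX12* at chr20:325302-325551, *SOX13* at chr1:204072865-204073114 and *SOX2* at chr3:181711675-181711924.
SOX4: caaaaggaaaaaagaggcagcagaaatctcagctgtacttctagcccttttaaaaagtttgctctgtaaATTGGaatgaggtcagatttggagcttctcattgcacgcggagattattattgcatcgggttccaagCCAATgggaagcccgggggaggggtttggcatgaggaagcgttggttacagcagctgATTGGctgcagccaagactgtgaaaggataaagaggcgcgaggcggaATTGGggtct
SOX12: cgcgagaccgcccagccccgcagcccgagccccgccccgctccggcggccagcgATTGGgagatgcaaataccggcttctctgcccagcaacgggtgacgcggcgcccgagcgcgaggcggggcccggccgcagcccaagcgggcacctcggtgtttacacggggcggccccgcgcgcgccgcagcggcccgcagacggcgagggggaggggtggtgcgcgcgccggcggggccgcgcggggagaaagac
SOX13: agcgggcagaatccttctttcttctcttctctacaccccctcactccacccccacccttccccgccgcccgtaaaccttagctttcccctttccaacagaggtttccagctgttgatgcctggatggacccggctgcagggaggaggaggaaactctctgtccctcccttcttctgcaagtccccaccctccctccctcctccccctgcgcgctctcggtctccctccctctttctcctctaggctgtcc
SOX2: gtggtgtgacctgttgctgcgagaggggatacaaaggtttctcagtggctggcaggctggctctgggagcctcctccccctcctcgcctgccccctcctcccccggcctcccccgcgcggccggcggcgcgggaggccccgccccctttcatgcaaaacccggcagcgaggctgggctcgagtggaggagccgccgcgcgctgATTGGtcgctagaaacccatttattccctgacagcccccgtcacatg

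The *SOX4* promoter held 4 CCAAT matches, starting 181, 114, 57 and 10 bases before the annotated start, and was 48.8% G or C with 8 CpG dinucleotides. Of 35116 promoters of the same length 32.0% held at least 1 CCAAT and 0.874% held 4 or more. The *SOX12* promoter was of another kind, with 79.2% G or C, 42 CpG, 1 CCAAT and 3 matches to GGGCGG, the Sp motif, which 42.6% of promoters held. At least as many CpG were found in 1.38% of promoters. Over all 35116 promoters the median was 11 CpG and 58.0% G or C. *SOX13* had 60.8% G or C, 8 CpG and 1 GGGCGG, and *SOX2* had 68.8%, 20 CpG, 1 CCAAT and 1 GGGCGG. The detected genes therefore did not share a base composition.

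The core letters of SOX binding, ACAAT on either strand, were found in none of these 4 promoters and in 24.6% of all. They occurred 2 times in the *SOX5* promoter and 1 or 2 times in each of the 5 *SOX6* promoters. These 2 genes had no probe above the floor, and neither had *SOX17* and *SOX18*, which had no promoter entry. A link between these matches and detection was not tested. ACAAAG, shared by SOX and TCF factors and held by 13.7% of promoters, matched 1 time in *SOX2* and 2 times in 1 of the *SOX6* promoters. TATAAA, the TBP motif, was held by 10.7% of promoters and among these genes by 3 of the *SOX6* promoters only, in 2 of them as overlapping matches on opposite strands. No other matches overlapped. The *SOX6* promoters ran from 27.2% to 58.8% G or C. These matches are letters in a window, not binding sites.

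**Figure D4:**
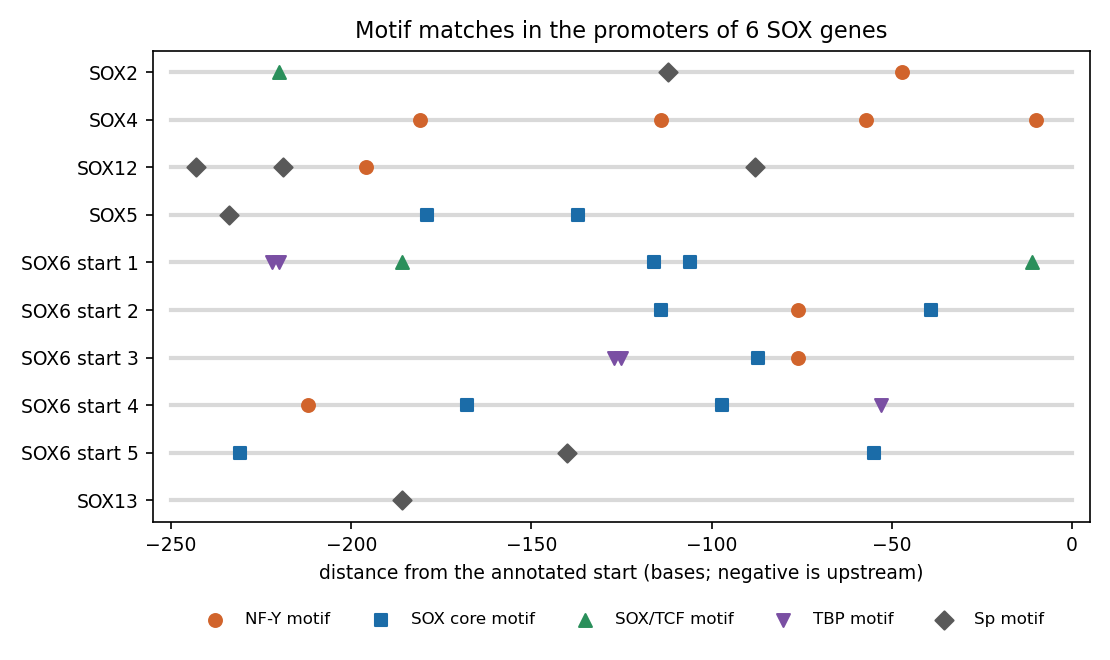
Position of motif matches on either strand in the 250 bases upstream of the annotated start of 6 SOX genes, with the horizontal axis in bases and *SOX6* drawn once for each of its 5 starts. *SOX4* shows 4 NF-Y matches, *SOX12* 3 Sp matches, and SOX core matches appear only at *SOX5* and *SOX6*.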

How the data were processed

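Expression was measured on 2 single-channel Illumina arrays, replicates 1 and 2 by their titles. RNA was amplified with the TotalPrep kit and biotin-labelled, per the labels' protocols, and GenomeStudio is named in the submitters' processing notes. The deposited values are normalized intensities on a linear scale. They reach -22.6 and the sorted values of the arrays differ by at most 0.155, which is what background subtraction and quantile normalization leave; a shift shared by all genes is then not visible. The file gives no detection p-value, and the number of arrays limits the precision.

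Of 47323 probes, 30113 had 1 gene symbol, 8 carried more than 1 and were left out, and 17202 have no name here. The symbol of 30074 probes was brought up to date by Entrez identifier from RefSeq. Values under the floor were set to it before log2. A gene was represented by its brightest probe among those above background on both arrays. A fold is given where both arrays were above the floor, and otherwise as a lower bound. The calculation was tested on simulated data. Python 3.11.15, numpy 2.4.6 and pandas 2.3.3 were used. The members, the 10 related gene lists, the marker lists and the genes to name were chosen with earlier results of these data known. All members and other SOX genes, the detected genes of each list and its first 4 measured members could be named, and genes named beyond these were chosen after their values were seen. Some listed genes were not analysed here, and counts are of measured genes. Alternatives were other floors, the median probe, median centring, a log offset of 50 and each array alone.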

Additional observations from a re-analysis of the deposited data

How the results depend on the processing

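The count of SOX genes above background on both arrays was 5, and it was 5 at the 90th percentile floor, 4 at the 99th, 5 at a floor from keratin-associated protein and taste receptor probes and 4 if the median probe stood for each gene (the lower of the middle pair for an even number). It was 6 without replicate 1 and 6 without replicate 2, and the probe count was also 6 in both cases. *SOX6* gained a call on replicate 2 at the 90th percentile floor, and *SOX2* and *SOX9* each lost theirs on replicate 1 at the 99th. By the median probe *SOX11* lost both calls and *SOX2* kept 1, so the number of SOX genes 2-fold or more apart was 0 in place of 1. All 28 alternative values of a SOX gene's log2 difference kept their sign, but most settings could not have changed it. The other floors and the median probe left the difference of a called SOX gene as it was. An offset added to both arrays cannot reverse a sign, and median centring moved each difference by 0.05 only. The size for *SOX11* ranged from 1.04 with the log offset to 1.54. Of 60 alternative counts for the related lists, 52 were within 1.5 times the count reported. The others were 4 by the median probe (progenitor 3, cartilage 1, endoderm 2 and Wnt 3), the other SOX genes at the 99th percentile floor (1) and the endothelial list, with 2 at the 90th, 0 at the 99th and 2 without replicate 1. The share over all genes was computed by any probe only, so the median-probe counts have no such share beside them. Over all genes, 1045 were 2-fold or more apart with the log offset, against 2298, with 455 higher and 590 lower in replicate 2. No paired analysis was possible because the series has 1 group. The lowest margins over background, those of *SOX9*, *SOX12* and *SOX2*, limit what can be said of these genes.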

Other observations

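Other proteins with an HMG box were above background on both arrays in 9 of 13 measured cases, against 46.9% of all genes. None of the 3 TCF/LEF factors measured, which read Wnt signals, was called on both arrays: *TCF7L1* had -5.75 and -13.1 and *LEF1* 7.73 and 13.0, below the floor on both arrays, and *TCF7L2* had 8.56 on replicate 1 and 34.1 on replicate 2. *TOX3* likewise had 11.6 and 38.8, above the floor on replicate 2 only. The chromatin proteins *HMGB1*, *HMGB2* and *HMGB3* had 82.5 and 123, 39.0 and 180, and 122 and 71.5. *TOX*, a nuclear HMG-box protein, had 52.1 and 164, while its relative *TOX2* had 104 and 43.4 at 1 of 3 probes. *HBP1*, a repressor with an HMG box, had 121 and 161 at the brighter of 2 detected probes.

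Genes that meet SOX proteins in Wnt signalling were detected in 7 of 9 cases on both arrays and in 9 of 9 on replicate 2, against 46.9% and 54.8% of all genes, but in 3 on both arrays by the median probe. At the 99th percentile floor the count on both arrays was 5. Among the 7, *TLE1* had 18.6 and 149 and *TLE4* 18.5 and 175, each barely above the floor of 18.01 on replicate 1. *CTNNB1*, which encodes beta-catenin, had 138 and 45.2 at the brightest of its 3 detected probes among 7. *AXIN2*, a Wnt target, had 85.3 and 128, and *RNF43*, a Wnt receptor ligase, 55.1 and 62.5. *LGR5* had -0.989 and 17.8 and *NKD1* 3.50 and 16.6, both above the floor on replicate 2 only. Their replicate 2 values lie under the floor of 18.01 on replicate 1. The noncoding RNA *SOX1-OT* had 15.08 on replicate 1 and 15.9 on replicate 2, where it met the floor of 15.9 with almost no margin.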
